A study of Mus musculus with 6 samples.

Results

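Type 2 activation genes of alveolar macrophages were followed in bulk RNA-seq of cells from allergen-exposed mice, in 3 Trim33 knockout (KO) libraries and 3 wild-type (WT) libraries. The 10 genes were taken by symbol from the deposited expression table: the receptor chains Il4ra and Il13ra1, the transcription factors Stat6, Klf4 and Egr2, and the effector genes Chil3, Chil4, Retnla, Mrc1 and Tgm2. All 10 were in the table of 17142 genes, and all 10 passed the filter that left 11111 genes for testing. Trim33 encodes a chromatin-binding cofactor of SMAD proteins. By their labels both groups were primary alveolar macrophages, which patrol the air spaces of the lung and clear inhaled particles, taken after 1 allergen challenge. The allergen, the strain, age and sex of the mice, and how Trim33 was deleted were not given in the sources used here. No unexposed library was analysed here, so the levels below describe exposed cells of either genotype and not a response to the allergen.

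Type 2 immunity to allergens runs on the cytokines IL-4 and IL-13, made by T helper cells and innate lymphoid cells. IL-4Rα, from Il4ra, pairs with the common gamma chain for IL-4, or with IL-13Rα1, from Il13ra1, for either cytokine. Janus kinases bound to these chains then activate STAT6, which turns on genes of the alternatively activated state in macrophages. Chil3 and Chil4 encode the chitinase-like secreted proteins Ym1 and Ym2, Retnla the secreted protein RELMα, Mrc1 the mannose receptor CD206 and Tgm2 a transglutaminase. Resting alveolar macrophages of the mouse are known to express Chil3 and Mrc1 strongly without any allergen.

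Chil3 and Chil4 are neighbours with like sequences on the reverse strand of chromosome 3, and the stretches around their annotated starts are shown because these genes moved together in the data. Each runs from 250 bases before to 10 bases after the start in RefSeq on GRCm38.p6, written 5′ to 3′ along the gene. Capitals mark the letters TTCNNNGAA, a spacing bound by STAT proteins, and TATAAA, the core of a TATA box.
Chil3, chr3:106167555-106167814: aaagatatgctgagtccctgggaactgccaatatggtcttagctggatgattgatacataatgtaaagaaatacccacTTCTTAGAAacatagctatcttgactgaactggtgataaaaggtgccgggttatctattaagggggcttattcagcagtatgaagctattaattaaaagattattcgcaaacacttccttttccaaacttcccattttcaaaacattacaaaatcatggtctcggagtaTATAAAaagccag
Chil4, chr3:106219470-106219729: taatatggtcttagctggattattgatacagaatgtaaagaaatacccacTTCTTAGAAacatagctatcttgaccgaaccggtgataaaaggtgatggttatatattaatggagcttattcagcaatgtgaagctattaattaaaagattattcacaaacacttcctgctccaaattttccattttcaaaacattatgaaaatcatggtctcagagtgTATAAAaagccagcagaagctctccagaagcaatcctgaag

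Over their shared 273 columns, the 300-base windows of both genes were 91.9% identical, with the annotated Chil4 start lying 28 bases further along than that of Chil3. Both carried the same TTCTTAGAA, at position -172 from the Chil3 start and -200 from the Chil4 start. TATAAA began at position -3 for Chil3, so that it spans the annotated start, and at -31 for Chil4. Of all 32851 RefSeq promoter windows of this length, 8.3% held TTCNNNGAA and 13.6% held TATAAA, on either strand. The wider spacing TTCNNNNGAA, which STAT6 prefers, was in 6.95% of windows and, among the members, only in the window of Retnla. Of the 10 members, 9 had an entry, with 13 windows in all, and Tgm2 had none. The matches are letters in a window and not measured binding.

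Trim33 itself was lower in every library labelled KO, at 2.63, 3.34 and 3.98 TPM in KO and 6.83, 10.97 and 6.86 TPM in WT (log2 difference -1.08 ± 0.19, limma adjusted p 0.0114; two-sided exact permutation p = 0.1, the smallest possible). TPM is a share of transcripts after scaling by gene length, so levels can be compared between genes, but the sequencing depth behind them is unknown. Differences are KO minus WT on the log2(TPM + 1) scale with their standard error, n is 3 libraries per group, and a gene counted as higher or lower at a Benjamini-Hochberg adjusted p under 0.05 in limma over all 11111 genes tested. The median difference over all tested genes was -0.15, and each change is to be read against that shift. No label ties a library to its own animal, so every p-value here reflects how much these libraries vary, and part of that variation may be technical. Markers of alveolar macrophages were all present, their sum being 6138 to 6323 TPM in KO and 5215 to 7058 TPM in WT. That sum holds differences in both directions. Car4 averaged 2193 TPM in KO and 1481 TPM in WT (limma adjusted p 0.0750). Marco averaged 751 TPM in KO and 973 TPM in WT (0.277), and Fabp4 317 TPM in KO and 403 TPM in WT (0.161). Of these 8 markers, Siglecf, a sialic-acid-binding lectin, and Krt79, a keratin, were lower in KO and none was higher. The shares over all tested genes were 10.2% lower and 4.47% higher.

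Of the 10 type 2 genes, 4 were lower in KO (Chil3, Chil4, Mrc1 and Klf4), none was higher and 6 did not pass. Over all tested genes 10.2% were lower and 4.47% higher, 14.6% in all. At an unadjusted p under 0.05 limma likewise gave 4 lower and 0 higher, where 28.5% of all tested genes were lower and 8.79% higher. The 4 lower genes were 3 macrophage products and 1 transcription factor, while both receptor chains and Stat6 did not pass. The median difference of the 10 genes was -0.27, against -0.15 over all tested genes, and this order was not stable. The median of the 10 genes stood above that of all genes without KO replicate 1 (-0.12 against -0.14), without WT replicate 1 (-0.16 against -0.18) and with library weights (-0.076 against -0.11). The 3 KO libraries lay wholly below the 3 WT libraries for the same 4 genes, a separation that 34.6% of all tested genes also had. None lay wholly above, as 9.84% of all tested genes did, so the 4 of 10 that did not overlap stand near the 44.4% of all tested genes that did not.

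**Figure D1:**
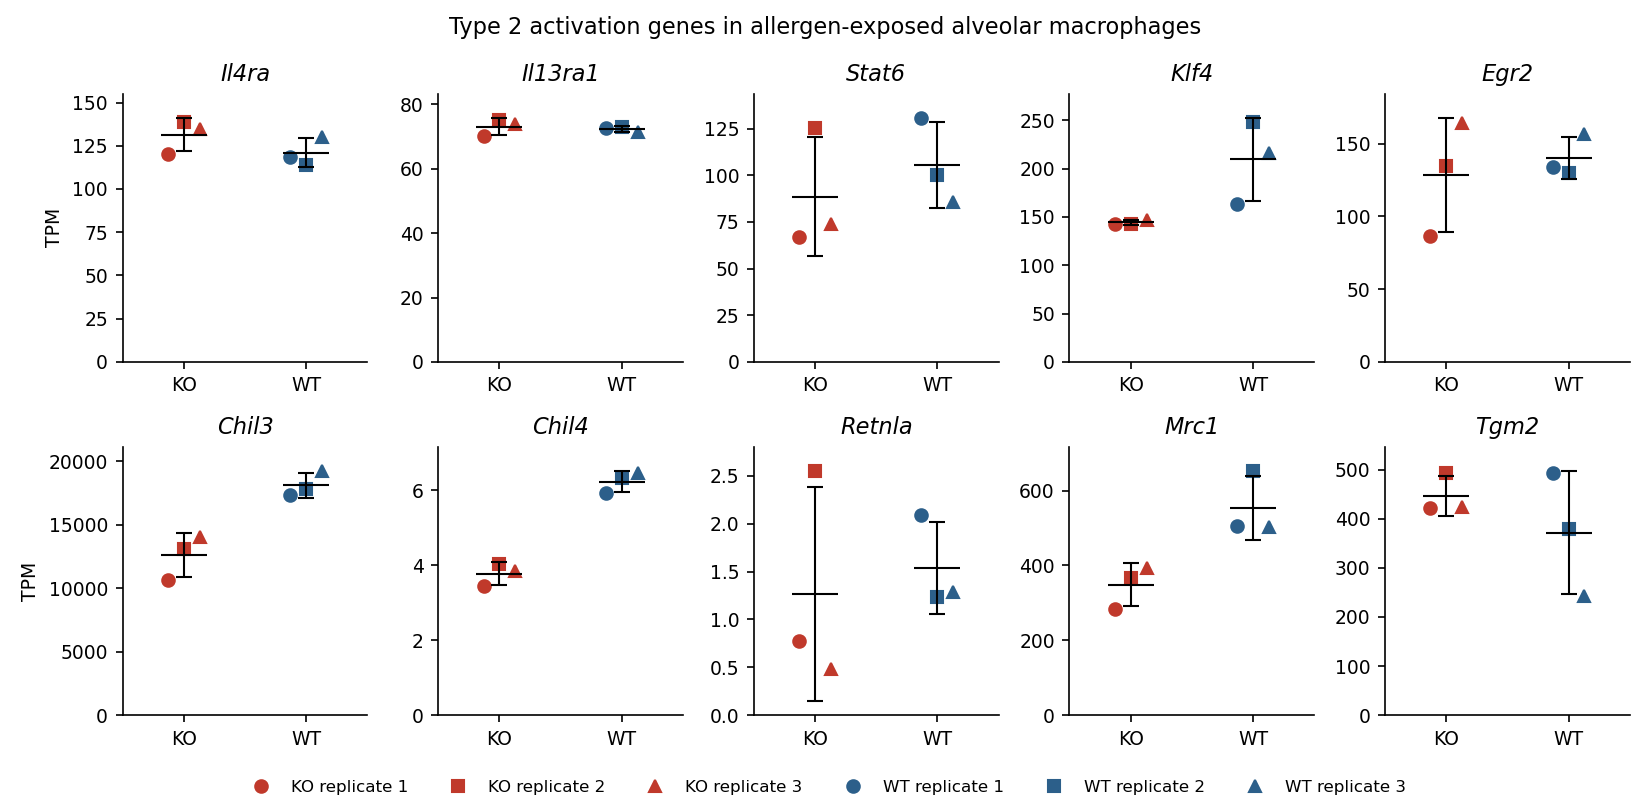
TPM of each of the 10 genes in the 3 KO libraries (red) and the 3 WT libraries (blue), 1 symbol per replicate number, with the mean and SD of each group as black bars on axes that start at 0. For Chil3, Chil4, Mrc1 and Klf4 every KO library lies below every WT library, and for the other 6 genes the groups overlap.

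Neither receptor chain passed. Il4ra (Entrez gene 16190, chromosome 7, 125552271 to 125579474) had 120.5, 139 and 135 TPM in KO, against 119, 114 and 130.15 TPM in WT. The groups overlapped, with KO replicate 1 inside the WT range. Its difference was 0.12 ± 0.09 with a 95% interval from -0.08 to 0.32 (limma adjusted p 0.347). Il13ra1 (Entrez gene 16164, chromosome X, 36112108 to 36171262) had 70.1, 75.2 and 74.0 TPM in KO, against 72.7, 73.0 and 71.4 TPM in WT. It was the steadiest of the 10 genes over all 6 libraries, with a difference of 0.01 ± 0.08 and an interval from -0.16 to 0.19 (adjusted p 0.908). Within each library, Il4ra was 1.72, 1.85 and 1.82 times as abundant as Il13ra1 in KO and 1.63, 1.56 and 1.82 times in WT. This ratio does not depend on how libraries are scaled, and it did not differ beyond its spread (two-sided exact permutation p = 0.3, with 0.1 the smallest that 3 against 3 allow).

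Stat6 (Entrez gene 20852, chromosome 10, 127642955 to 127660987), the signal transducer of both receptors, had 66.9, 125 and 73.7 TPM in KO, against 130.7, 100.04 and 85.8 TPM in WT. KO replicate 2 lay near the top of the WT range, while the other KO libraries lay below it. The interval of its difference ran from -0.96 to 0.39 around -0.28 (adjusted p 0.477), which takes in both no change and falls larger than those of the 4 genes that passed. It was -0.56 without KO replicate 2 (adjusted p 0.0948), -0.11 without KO replicate 1 and -0.12 without WT replicate 1. Stat6 overlaps Nab2 and Il4ra overlaps Gm44876, each on the opposite strand, and the sources used here do not say whether counting used strand.

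Of the other transcription factors Klf4 was lower in KO and Egr2 did not pass. Klf4 (Entrez gene 16600, chromosome 4, 55527137 to 55532475), a zinc finger factor that works with STAT6 in alternatively activated macrophages, had 143, 143 and 147 TPM in KO, against 163, 248 and 217 TPM in WT. The KO libraries were nearly alike, and WT replicate 1 was the WT library closest to them. The means were 144 ± 2.38 TPM in KO and 209 ± 42.9 TPM in WT (SD), a difference of -0.51 ± 0.13 (adjusted p 0.0364). Egr2 (Entrez gene 13654, chromosome 10, 67534469 to 67542188), a zinc finger factor induced by IL-4 in macrophages, had 86.3, 135 and 164 TPM in KO, against 134, 129.62 and 157 TPM in WT. Its KO values spread on both sides of the WT range, with a difference of -0.17 ± 0.23 and an interval from -0.71 to 0.37 (adjusted p 0.606).

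Chil3 (Entrez gene 12655, chromosome 3, 106147554 to 106167564) was the most abundant of the 10 genes by far, with ranks 5 to 7 among all genes in KO libraries and 2 to 4 in WT libraries. It had 10659.8, 13071 and 14025 TPM in KO, against 17310.5, 17785 and 19218 TPM in WT. Even the highest KO library was below the lowest WT library. The means were 12585 ± 1734 TPM in KO and 18104 ± 993 TPM in WT (SD), so that the mean fell by 30.5% in KO, with a difference of -0.53 ± 0.11 (adjusted p 0.0168). Chil3 took 1.26% ± 0.173 of all TPM in KO and 1.81% ± 0.0993 in WT. In bulk RNA, fewer cells of a type and less RNA per cell cannot be told apart.

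Chil4 (Entrez gene 104183, chromosome 3, 106201491 to 106219479) had 3.44, 4.04 and 3.86 TPM in KO, against 5.92, 6.33 and 6.45 TPM in WT. All KO libraries were below all WT libraries, with a difference of -0.60 ± 0.13 (adjusted p 0.0202). Its level was a small part of that of Chil3, at 0.0323%, 0.0309% and 0.0275% of Chil3 in KO and 0.0342%, 0.0356% and 0.0336% in WT. This part was smaller in every KO library than in every WT library. The share of Chil3 in the sum of both genes was 0.0042 percentage points higher in KO (two-sided exact permutation p = 0.1, the smallest possible). The longest protein-coding transcripts of both genes are 94.2% identical in GENCODE, with a longest identical stretch of 136 bases, and 18.5% of the 50-base windows of Chil4 also occur in Chil3. Whether the Chil4 values are Chil4 transcripts or misplaced reads of the far more abundant Chil3 was not tested, so the fall of Chil4 cannot be counted as independent of that of Chil3.

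Mrc1 (Entrez gene 17533, chromosome 2, 14229414 to 14332023), the endocytic receptor for mannose-bearing glycans, had 284, 367 and 394 TPM in KO, against 505, 652 and 504 TPM in WT. All KO libraries lay below all WT libraries. The means were 348 ± 57.5 TPM in KO and 553 ± 85.3 TPM in WT (SD), so that the mean fell by 37.1% in KO. Its difference was -0.67 ± 0.14 (adjusted p 0.0212). Relative to the median shift of all genes, the differences were -0.52 for Mrc1, -0.45 for Chil4, -0.38 for Chil3 and -0.37 for Klf4.

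Retnla and Tgm2, the other effector genes, did not pass. Retnla (Entrez gene 57262, chromosome 16, 48842609 to 48844461), a strongly IL-4-induced gene in other mouse macrophages, stood near the filter of 1 TPM with 0.78, 2.55 and 0.48 TPM in KO, against 2.09, 1.23 and 1.29 TPM in WT. KO replicate 2 was the highest and KO replicate 3 the lowest of the 6 libraries. The interval of its difference ran from -0.95 to 0.45 (adjusted p 0.567). Tgm2 (Entrez gene 21817, chromosome 2, 158116405 to 158146392), which crosslinks proteins, had 421, 492 and 423 TPM in KO, against 493, 379 and 243 TPM in WT. The WT libraries spread so widely that they took in the KO values, and the difference was 0.32 ± 0.25 with an interval from -0.30 to 0.93 (adjusted p 0.389). It was 0.039 without WT replicate 3, 0.55 without WT replicate 1 and 0.67 with library weights, and passed in none of these. Tgm2 overlaps Rprd1b on the opposite strand.

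**Figure D2:**
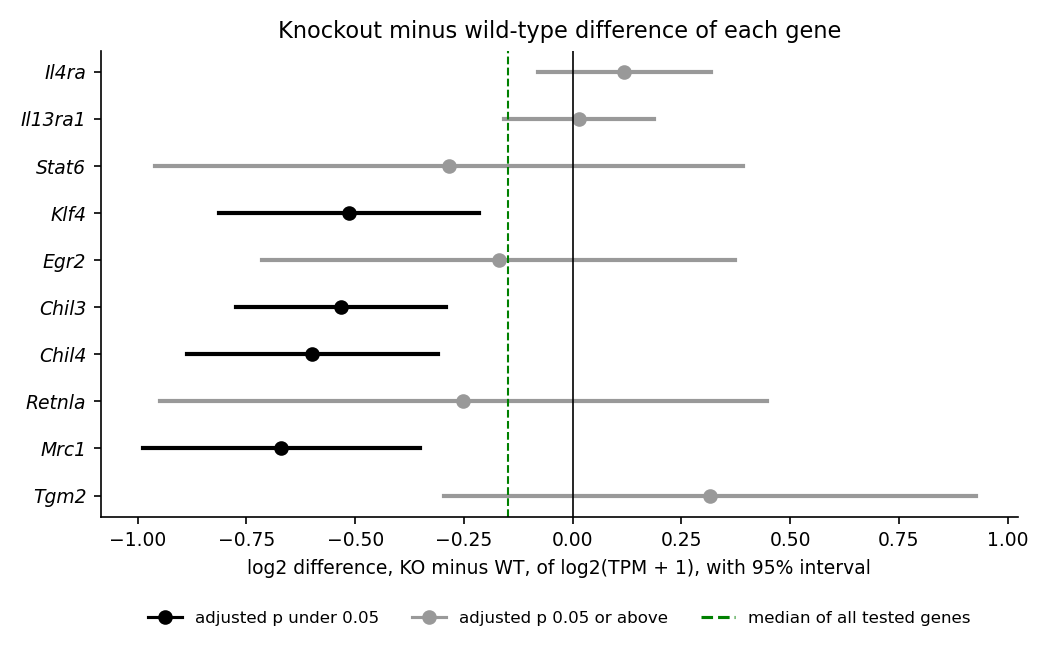
Log2 difference of each of the 10 genes (KO minus WT, log2(TPM + 1) scale) with its 95% interval from limma. Black marks the 4 genes at an adjusted p under 0.05, grey the other 6, and the dashed line the median of all tested genes, -0.15; the intervals of Il4ra and Il13ra1 are the narrowest.

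The 4 calls rested on the full set of libraries. With 1 library left out, the 4 differences stayed below 0, but the number of members that passed as lower was 0 without KO replicate 1, KO replicate 2 or WT replicate 3, 1 without WT replicate 2 (Chil4), 3 without KO replicate 3 and 4 without WT replicate 1. The limma adjusted p then ran from 0.00910 to 0.0638 for Chil3, from 0.0128 to 0.0963 for Chil4, from 0.0172 to 0.0688 for Mrc1 and from 0.00122 to 0.113 for Klf4. The scale mattered too. Median-ratio scaling, which moved the median of all genes to -0.0057, gave differences of -0.38 for Chil3 (adjusted p 0.133), -0.47 for Chil4 (0.0345), -0.51 for Mrc1 (0.0432) and -0.36 for Klf4 (0.0781). On that scale 592 genes (5.33%) were higher and 394 (3.55%) lower in KO, where the TPM scale gave 497 higher and 1129 lower.

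**Figure D3:**
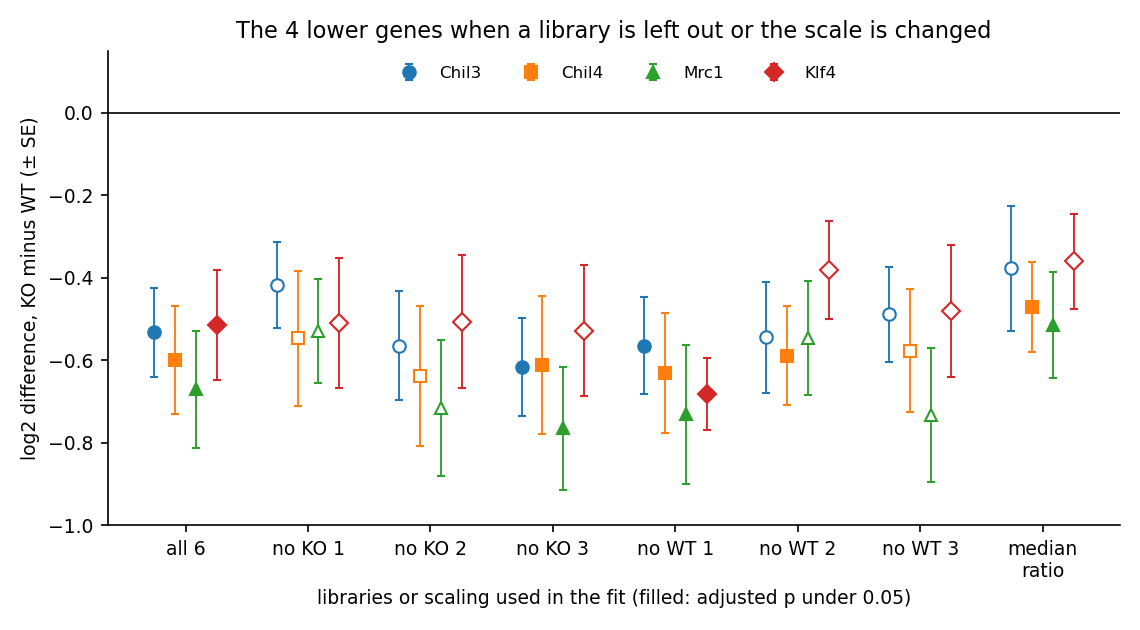
Log2 difference (KO minus WT, ± SE) of Chil3, Chil4, Mrc1 and Klf4 with all 6 libraries, with each library left out in turn, and after median-ratio scaling. Filled symbols passed at an adjusted p under 0.05; every difference shown lies below 0, and WT replicate 1 is the only library without which all 4 genes still pass.

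The other genes of the pathway were described from 5 lists with 70 genes, of which 47 were tested. Of these, 6 were higher in KO and 4 lower, and 37 did not pass, with a median difference of 0.02. Over all tested genes 4.47% were higher and 10.2% lower. At an unadjusted p under 0.05 limma gave 12 higher and 11 lower, where 8.79% of all tested genes were higher and 28.5% lower. Of 8 cytokines and alarmins of type 2 immunity, 5 were in the table and none of them reached the filter. Il4, Il5, Tslp and Csf2 were at most 0.17 TPM in any library, and Il33 at most 1.39 TPM. Il13, Il9 and Il25 had no entry in the table, so their levels are unknown.

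Among 13 tested signalling partners and feedback genes, 3 were higher, none was lower in limma and 10 did not pass. The shares over all tested genes were 4.47% higher and 10.2% lower. At an unadjusted p under 0.05, 5 were higher and 4 lower, where 8.79% of all tested genes were higher and 28.5% lower. The lower ones stood near their share, and the higher ones above theirs. This list was chosen with earlier results of these data known, so the excess is a description and not a test. Il2rg, the common gamma chain that pairs with IL-4Rα for IL-4, had 341, 285 and 259 TPM in KO, against 207, 149 and 140 TPM in WT. All KO libraries were above all WT libraries, with a difference of 0.84 ± 0.16 (limma adjusted p 0.0164). The ratio of Il4ra to Il2rg, chosen after its values were seen, was 0.353, 0.487 and 0.520 in KO and 0.574, 0.762 and 0.932 in WT (two-sided exact permutation p = 0.1, the smallest possible). Socs1 and Socs3, feedback inhibitors of cytokine receptor signalling, were also higher. Socs3 had 73.8, 78.2 and 62.9 TPM in KO, against 38.6, 29.8 and 37.9 TPM in WT, a difference of 0.998 ± 0.12 (adjusted p 0.00188). Socs1 had 20.5, 17.4 and 9.61 TPM in KO, against 6.14, 3.95 and 5.09 TPM in WT, a difference of 1.43 ± 0.26 (adjusted p 0.0174). The Il2rg and Socs1 calls were lost without KO replicate 2, WT replicate 2 or WT replicate 3, whereas Socs3 passed with any 1 library left out. The kinase genes did not pass: Jak1 averaged 66.6 TPM in KO and 79.8 TPM in WT, Jak3 24.1 TPM in KO and 20.3 TPM in WT, and Tyk2 41.1 TPM in KO and 51.95 TPM in WT. Under some alternatives Jak3 and Tyk2 did, in opposite directions, whereas Jak1 passed in none. Jak3 passed as higher after median-ratio scaling (difference 0.39, adjusted p 0.0273), quantile scaling and with library weights, and Tyk2 as lower with library weights (-0.30, adjusted p 0.0244) and without WT replicate 1 (-0.45, adjusted p 0.0127).

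Among 14 tested transcription factors and cofactors, 1 was lower, 13 did not pass and none was higher in limma. The shares over all tested genes were 10.2% lower and 4.47% higher. At an unadjusted p under 0.05 limma gave 3 lower and none higher, where 28.5% of all tested genes were lower and 8.79% higher. The lower one was Ppargc1b, a coactivator that works with STAT6 in the oxidative metabolism of alternatively activated macrophages, at 7.97 ± 0.0651 TPM in KO and 10.9 ± 1.01 TPM in WT (SD, adjusted p 0.0463). Its call was lost with any 1 library left out and after median-ratio scaling (-0.26, adjusted p 0.122). Quantile scaling, FPKM values and a fit without the filter lost it as well. Pparg, a lipid-sensing nuclear receptor needed for alveolar macrophages, averaged 265 TPM in KO and 307 TPM in WT (adjusted p 0.155). Irf4, a factor induced by IL-4, averaged 2.93 TPM in KO and 2.85 TPM in WT (adjusted p 0.918).

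Of 17 tested effector genes induced by IL-4 or IL-13, 3 were higher, 2 lower and 12 did not pass, with a median of 0.23. Over all tested genes 4.47% were higher and 10.2% lower. At an unadjusted p under 0.05 limma gave 7 higher and 3 lower, where 8.79% of all tested genes were higher and 28.5% lower. Msr1, a scavenger receptor, was higher, with 111, 87.8 and 90.7 TPM in KO, against 63.0, 56.7 and 59.2 TPM in WT, a difference of 0.68 ± 0.10 (adjusted p 0.0059) that passed with any 1 library left out. Il1r2, a decoy receptor for IL-1, averaged 4.56 ± 0.329 TPM in KO and 2.24 ± 0.904 TPM in WT (SD, limma adjusted p 0.0330). Ccl22, an attractant of T helper cells, averaged 17.6 ± 1.59 TPM in KO and 13.2 ± 1.24 TPM in WT (SD, limma adjusted p 0.0499). Igf1, an insulin-like growth factor, was lower, at 8.33, 7.24 and 9.08 TPM in KO, against 14.1, 15.8 and 12.3 TPM in WT (difference -0.71 ± 0.13, adjusted p 0.0130). Pdcd1lg2, which encodes the inhibitory ligand PD-L2, averaged 2.91 ± 0.560 TPM in KO and 5.26 ± 1.40 TPM in WT (SD, limma adjusted p 0.0476). The Il1r2, Ccl22 and Pdcd1lg2 calls held with 1 library left out only when that was WT replicate 1, and the Igf1 call was lost without KO replicate 2. Pdcd1lg2 also did not pass after median-ratio scaling (-0.54, adjusted p 0.0852) or quantile scaling. It was lost, too, with FPKM values, without the filter and with plain variance moderation. The Ccl22 call was also lost with a pseudocount of 5, without the filter and with plain variance moderation, and the Il1r2 call without the filter.

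Ccl17, a chemokine that shares a receptor with Ccl22, had 612, 186 and 182 TPM in KO, against 119, 37.5 and 35.3 TPM in WT. Replicate 1 was the highest library of each group, and the lowest KO library was still above the highest WT library. The difference of 2.32 ± 0.75 did not pass (limma adjusted p 0.102), but did with plain variance moderation (adjusted p 0.0466) and with the replicate number as a block. Arg1, the arginase used to mark alternative activation in many mouse macrophages, was near the filter, at 1.21, 2.24 and 1.36 TPM in KO, against 1.76, 1.03 and 0.44 TPM in WT (adjusted p 0.314). It passed as higher only with library weights (difference 0.73, limma adjusted p 0.0392). Ccl24, an eosinophil attractant, did not exceed 0.22 TPM in any library.

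Family relatives of the members were mostly too low to test. Of 12 relatives, 3 were tested, of which 1 was lower, 2 did not pass and none was higher in limma, also at an unadjusted p under 0.05. The shares over all tested genes were 10.2% lower and 4.47% higher, and 28.5% and 8.79% at the unadjusted threshold. Tgm1, a transglutaminase like Tgm2, was lower, at 3.28, 3.72 and 3.35 TPM in KO, against 5.32, 6.82 and 6.55 TPM in WT (difference -0.70 ± 0.14, adjusted p 0.0165). That call was lost without KO replicate 1, KO replicate 2 or WT replicate 3. Chil1, another chitinase-like gene whose sign is not settled across the left-out libraries, averaged 5.22 TPM in KO and 4.70 TPM in WT (adjusted p 0.881). The active chitinase genes Chia1 and Chit1 did not exceed 0.18 TPM and 0.05 TPM, and Retnlg, a relative of Retnla, had 0.78 to 1.88 TPM in KO and 0.64 to 0.87 TPM in WT.

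**Figure D4:**
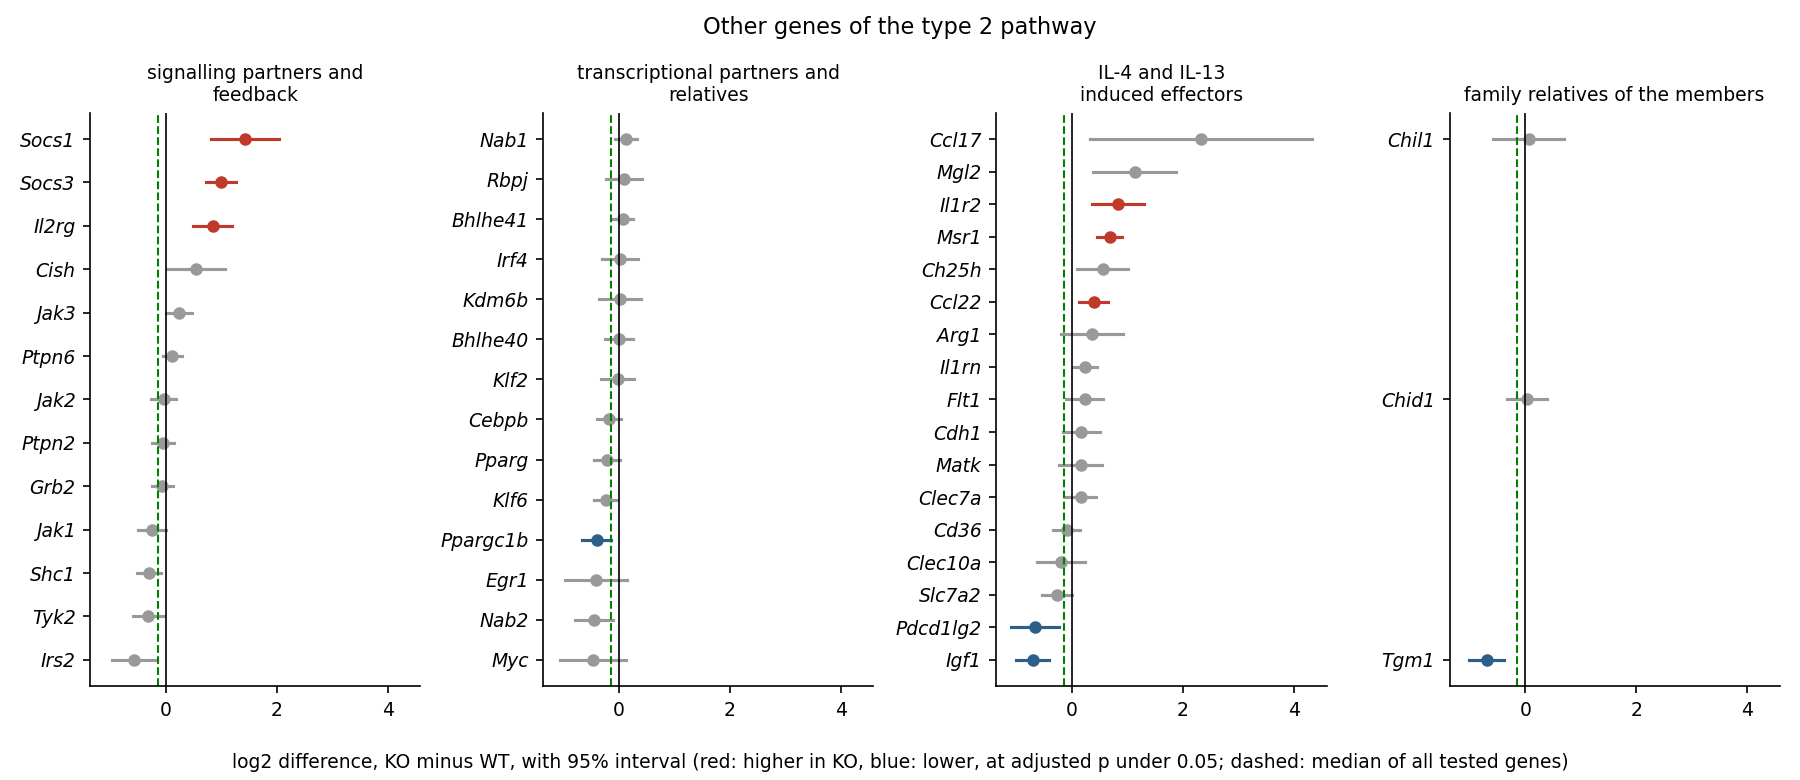
Log2 difference (KO minus WT) with 95% interval for the 47 tested genes of 4 lists of other type 2 genes, sorted within each list. Red marks the 6 genes higher in KO and blue the 4 lower at an adjusted p under 0.05, grey the 37 others; Ccl17 has the largest difference and the widest interval.

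Markers of other cells stood beside these results. Of 7 monocyte markers, 3 were higher in KO (Ly6c2, Plac8 and Vcan) and none lower. At that threshold 4.47% of all tested genes were higher and 10.2% lower, to be read beside every marker count here. The markers were chosen after their values were seen. The sum of the monocyte markers was 263, 215 and 100.81 TPM in KO, against 58.7, 32.3 and 26.95 TPM in WT. Itgam, an integrin that did not pass (limma adjusted p 0.0714), gave the largest part of the KO sums, with 138, 89.1 and 61.5 TPM in KO and 42.3, 18.5 and 13.1 TPM in WT. Ccr2, the chemokine receptor of classical monocytes, averaged 4.50 TPM in KO and 4.83 TPM in WT (limma adjusted p 0.711). KO replicate 1, with the highest monocyte sum, had the lowest Chil3 and Mrc1 of all libraries, and KO replicate 3, with the lowest KO sum, had the highest Chil3 and Mrc1 of the KO libraries. Among WT libraries Chil3 followed that order, with 17310.5, 17785 and 19218 TPM in replicates 1, 2 and 3, whose monocyte sums fell. Mrc1 did not follow it, since WT replicates 1 and 3, with the highest and the lowest WT monocyte sum, had nearly the same Mrc1. Monocytes are also known to express Chil3. The part of monocyte-lineage cells in the falls of Chil3 and Mrc1 and in the rises of Il2rg, Msr1 and Ccl22 was not tested. The 8 epithelial markers, whose cells can make Chil4 and Retnla, summed to 109 to 235 TPM in KO and 186 to 240 TPM in WT, and none passed. Of 7 markers of T cells and innate lymphoid cells, 6 were under 1 TPM in every library, and the other, Il7r, was higher in KO. Of 5 dendritic cell markers Ccr7 was higher and none lower, and the list summed to 7.36 to 10.15 TPM in KO and 5.60 to 5.92 TPM in WT. None of the 3 tested neutrophil markers, the 1 tested B cell marker and the 5 tested markers of fibroblasts and endothelium passed in limma, and the mast cell and basophil markers were too low to test. Of 6 eosinophil markers 3 were in the table and none passed in limma. Among them Prg2, which encodes a granule protein, was at 0 in every library but KO replicate 2 with 0.11 TPM, Il5ra was at most 1.48 TPM, and Ear6 had 355 to 484 TPM in KO and 189 to 380 TPM in WT.

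**Figure D5:**
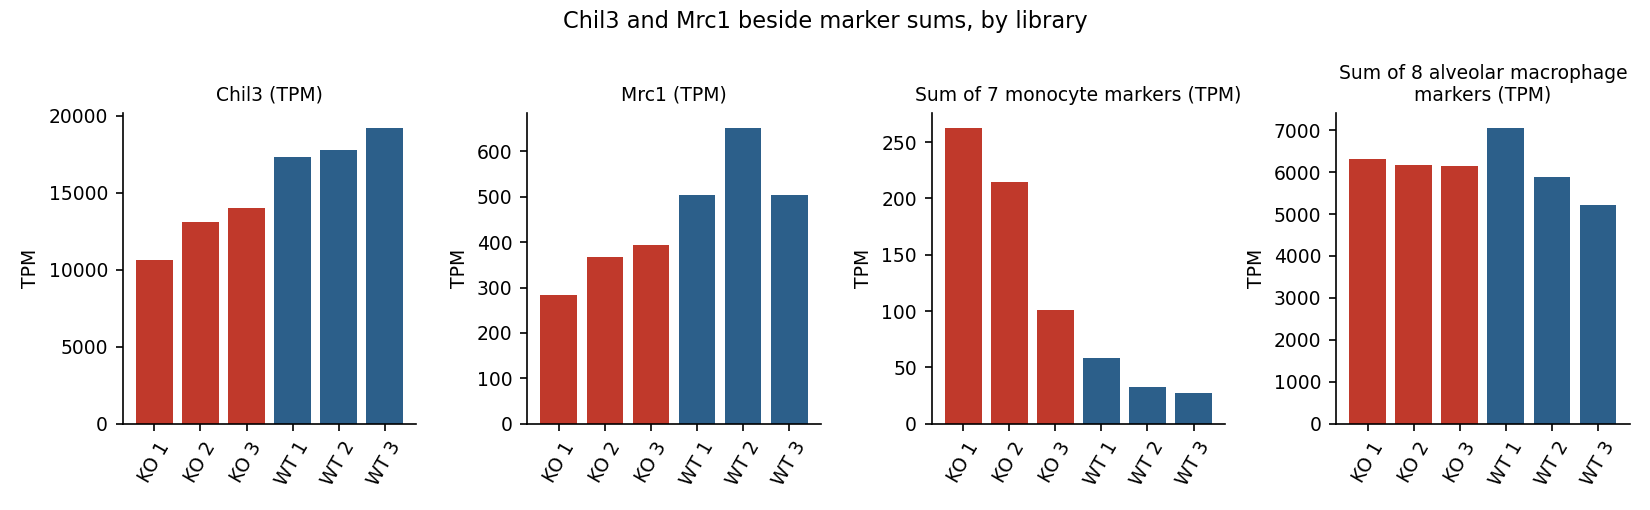
TPM of Chil3, of Mrc1, and of the summed monocyte (7 genes) and alveolar macrophage (8 genes) markers in each KO library (red) and WT library (blue), on axes that start at 0. Chil3 and Mrc1 are lower and the monocyte sum is higher in every KO library, while the alveolar macrophage sums of both groups overlap. Single markers within the alveolar macrophage sum differed in both directions.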

How the data were processed

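Primary alveolar macrophages were profiled by bulk RNA-seq of total RNA, with TRIzol extraction and an MGI library kit, per the labels' protocols. The submitters' processing notes list HISAT2 (2.0.4), Bowtie2 (2.2.5) and GRCm38.p6. The quantification program, annotation and use of strand were not given in the sources used here. Per the file headers, the authors deposited TPM and FPKM values per gene and library. No step was shared by low FPKM values of different libraries (58 to 69 genes in the fullest ratio bin, 47 to 60 in the next), so depth is unknown and no counting interval is given. TPM sums to a fixed total, so a rise of some genes lowers others.

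Groups and replicate numbers came from the sample titles. A gene entered the limma fit (limma 3.58.1, R 4.3.3, trended and robust variances) when 3 or more of the 6 libraries had 1 TPM or more. Values were log2(TPM + 1), and p-values were adjusted over all genes tested. In a simulation of this comparison with 11111 genes, 89 of 100 genes with a log2 change of 1 were found and 98 of 100 with a change of 2, while 6 of 193 calls were false. Its noise was independent between libraries, and changes were planted only above a set expression level, which Chil4 and Retnla did not reach. The planted changes were larger than the difference of any member. It therefore does not show how often changes as small as those of the members are found. Within-library ratios were compared by exact permutation (scipy 1.17.1). No 2 libraries shared more than 2.53% of values, so none was a duplicate.

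The 10 members and all lists were chosen with earlier results of these data known. Named were all members, Trim33, every gene of the 5 pathway lists that passed, and 15 pathway genes whatever their values. Adora3 and its neighbours, Mgl2, Chil5, the cytokines and the markers fall outside this rule and were chosen after their values were seen. Alternatives were the deposited FPKM, pseudocounts of 0.1 and 5, a filter of 5 TPM or none, scaling by median ratio or quantiles, plain variance moderation, weighted libraries, a block for the replicate number, Chil3 and Chil4 summed, and each library left out. Coordinates and promoters came from RefSeq on GRCm38.p6 by Entrez ID (17024 of 17142 genes matched), transcripts and overlaps from GENCODE M21, and alignments from Biopython 1.88.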

Additional observations from a re-analysis of the deposited data

How the results depend on the processing

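Chil3, Chil4, Mrc1 and Klf4 were below 0 under every alternative run. Members called lower numbered 2 without the filter (Chil3 and Chil4) and 2 after median-ratio scaling (Chil4 and Mrc1), and 0 to 4 with 1 library left out; under every other alternative they numbered 3 or 4. Members called higher numbered 0 in limma under all alternatives. The median of the members ran from -0.53 to -0.12 with 1 library left out and was -0.076 with library weights. Other type 2 genes called higher numbered 13 with library weights and 2 to 8 with 1 library left out. Those called lower numbered 2 with FPKM values, without the filter, and after median-ratio or quantile scaling, 7 with library weights, and 0 to 7 with 1 library left out. Over all genes, those higher numbered 1004 with library weights and 119 to 798 with 1 library left out. Those lower numbered 326 without the filter, 394 after median-ratio scaling, 587 after quantile scaling, 672 with plain moderation, 2552 with library weights and 80 to 2563 with 1 library left out. The cause of these shifts was not tested. Differences that did not pass changed sign for Retnla (0.055) and Stat6 (0.050) with library weights, and for 5 genes with 1 library left out. These ran from -0.63 to 0.0032 for Retnla, from -0.37 to 0.089 for Egr2, from -0.0068 to 0.044 for Il13ra1, from -0.028 to 0.11 for Irf4 and from -0.23 to 0.35 for Chil1. Retnla had no value with FPKM values or a minimum of 5 TPM, where it did not pass the filter.

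No label says whether the replicate numbers pair the libraries. Deviations from the group means correlated at 0.32, -0.03 and 0.09 over genes for numbers 1, 2 and 3. Number 1 gave the highest value of all KO and WT pairs, but not every library correlated best with its own number. Whether the numbers mark a shared batch is therefore not settled. With the replicate number as a block, 753 genes were higher and 2147 lower, 7 other type 2 genes were lower, Ccl17 passed (adjusted p 1.33e-11), and the members called lower were the same 4 genes.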

Other observations

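Chil3 and Chil4 lie on the same chromosome as the deleted gene, 2.79 and 2.84 Mb beyond the end of Trim33 on GRCm38.p6. Of 65 tested genes within 5 Mb of Trim33, with Trim33 left out, 6 were higher and 7 lower in KO, or 9.23% and 10.8%, against 4.47% and 10.2% of all tested genes. The 7 include Chil3, Chil4 and Adora3. In the chitinase-like gene cluster, Chil5 and Chia1 did not exceed 0.25 TPM in any library. Of the same 7 genes, Adora3 (chromosome 3, 105904421 to 105908928), which encodes the adenosine A3 receptor, had 5.81, 4.16 and 5.23 TPM in KO, against 8.39, 10.46 and 11.62 TPM in WT. Its difference was -0.88 ± 0.16 (limma adjusted p 0.0112, from 0.000735 to 0.0616 over the alternatives), and the call was lost without KO replicate 2 or WT replicate 3. Adora3 overlaps Tmigd3, which had at most 0.29 TPM in KO and at most 1.28 TPM in WT. Between Adora3 and the chitinase-like genes, Atp5pb, which encodes an ATP synthase subunit, had 208 to 213 TPM in KO and 205 to 220 TPM in WT (adjusted p 0.932).

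Mgl2, a C-type lectin often used beside Mrc1 as a type 2 marker, had 13.4, 12.2 and 6.47 TPM in KO, against 5.88, 2.56 and 4.56 TPM in WT. Its groups did not overlap, in the direction opposite to Mrc1, but it did not pass (difference 1.13 ± 0.32, limma adjusted p 0.0534).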
